A study of Mus musculus with 2 samples.

Results

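The 10 genes described here belong to the BCL2 family, which sets whether a cell keeps its mitochondria intact or dies by apoptosis. They were found by symbol in both count matrices, and all 10 of the 32285 genes in the matrices were matched: the survival genes Bcl2, Bcl2l1, Mcl1, Bcl2a1a, Bcl2a1b and Bcl2a1d, the effector Bax, and the BH3-only genes Bcl2l11, Bbc3 and Pmaip1. The question was how much of each gene the cells carried, in which share of cells it was found, and which survival gene gave the most transcripts in each T cell lineage. The comparison is between 2 groups, each of a single library of droplet single-cell RNA sequencing (10x Genomics, transcript 3' ends): cells of normal colon tissue, labelled IEL, and cells of colon tumor, labelled TIL. The cells of both were labelled gamma-delta (γδ) T lymphocytes, and the mice were C57BL/6J, 18 to 20 weeks of age. The labels give no treatment, tumor model, number of animals, sort or gate, and their preparation text speaks of tumor tissue for both libraries.

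Survival proteins of the family hold BAX and its partner BAK in check at the mitochondrial surface. BH3-only proteins, made or released under stress or loss of growth signals, bind the survival proteins and free BAX to open the outer membrane, after which caspases are activated. Lymphocytes rely on different survival proteins at different stages: naive and resting cells are known for BCL2, activated cells for BCL-XL and A1, and nearly all lymphocytes for the short-lived MCL1.

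With 1 library per group, library and tissue cannot be told apart, no test was possible, and the 95% intervals given cover counting error only. Values are unique molecular identifiers (UMIs) of a gene per 1000000 UMIs of all genes, summed over the cells of a group (CPM). A UMI stands for 1 captured transcript end, so CPM is not scaled by transcript length, although genes may be captured with different efficiency. The libraries held 69414155 UMIs in 9398 barcodes (IEL) and 94953893 UMIs in 13245 barcodes (TIL), of which 9128 and 12383 cells were kept, with medians of 6858.5 and 6461 UMIs. The libraries shared 33 barcodes. Clusters named as a γδ T subset, cycling-like or heat-shock-high made up 99.6% of IEL cells and 94.5% of TIL cells. Their cells are called γδ T-like. The γδ T markers alone did not set them apart, since the myeloid-like and epithelial-like clusters held 6 and 5 of them at 50 CPM. IEL cells were mostly cytotoxic-like (61.7%, clusters 2, 4 and 5), marked by Kit, Xcl1 and Tcf7 (23.9%, mostly cluster 3) or high in heat-shock genes (12.1%, cluster 6). The TIL groups described here were smaller: recirculating-like (5.78%, cluster 7), cytotoxic-like (5.07%, cluster 16) or marked by Kit, Xcl1 and Tcf7 (3.74%, mostly cluster 17). Most TIL γδ T-like cells thus lay outside these groups and enter only the values over all γδ T-like cells. Different clusters hold a lineage of the same name in each library. Cells said to be marked by Kit, Xcl1 and Tcf7 needed at least 3 of Kit, Xcl1, Tcf7 and Slamf6 at 50 CPM. Of these genes, cluster 3 had Tcf7 among its leading genes and cluster 17 had Kit and Xcl1. The cell type label was checked against receptor transcripts after thinning every cell to 2000 UMIs. Trdc, the δ constant gene, was found in 75.1% of IEL and 95.2% of TIL γδ T-like cells, but Trac, the α constant gene, was also found in 43.3% and 15.8%. IEL values are therefore also given for cells with a γδ constant transcript and no Trac.

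The Bcl2a1 genes carried the widest difference between the libraries and are shown first. They encode A1, an inducible survival protein, and are near-identical copies on mouse chromosome 9 (GRCm38): Bcl2a1d at chr9:88723285-88731914 on the minus strand, Bcl2a1a at chr9:88956900-88962419 and Bcl2a1b at chr9:89199209-89207827 on the plus strand. Their transcripts are 98.2% (Bcl2a1a and Bcl2a1b), 98.8% (Bcl2a1a and Bcl2a1d) and 99.1% (Bcl2a1b and Bcl2a1d) identical. In the last 500 bases, near which 3' reads are counted, 60.3% of 90-base windows of Bcl2a1a occur in no other Bcl2a1 gene, against 33.8% for Bcl2a1b and 34.8% for Bcl2a1d. Reads could therefore be lost or assigned to the wrong copy, the single rows are uncertain, and their sum is the main value below. The stretches upstream of the transcript starts are printed to show how alike the copies are where transcription begins. They are RefSeq sequences of GRCm38.p6, 5′ to 3′ on each gene's strand, at chr9:88956670-88956899 for Bcl2a1a, chr9:89199023-89199208 for Bcl2a1b and chr9:88731915-88732100 (minus strand) for Bcl2a1d. Capitals mark the match to TGANTCA, a loose form of the AP-1 motif in which N allowed any base. The match reads TGAATCA in each copy, with A where the AP-1 consensus has C or G.
Bcl2a1a: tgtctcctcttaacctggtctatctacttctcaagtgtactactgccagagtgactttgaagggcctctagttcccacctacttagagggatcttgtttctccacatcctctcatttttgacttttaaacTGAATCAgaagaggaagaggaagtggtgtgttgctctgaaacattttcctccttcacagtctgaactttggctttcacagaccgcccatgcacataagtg
Bcl2a1b: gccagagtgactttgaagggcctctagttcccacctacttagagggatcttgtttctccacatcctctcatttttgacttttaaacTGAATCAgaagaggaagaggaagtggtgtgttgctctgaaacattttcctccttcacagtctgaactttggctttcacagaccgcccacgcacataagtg
Bcl2a1d: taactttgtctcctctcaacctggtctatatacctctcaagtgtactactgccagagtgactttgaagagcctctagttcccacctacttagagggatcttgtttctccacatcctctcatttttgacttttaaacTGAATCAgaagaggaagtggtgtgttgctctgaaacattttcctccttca
The aligned parts are 99.5% identical between Bcl2a1a and Bcl2a1b, 94.6% between Bcl2a1a and Bcl2a1d and 95.1% between Bcl2a1b and Bcl2a1d. Promoter windows of 300 bases were searched on both strands for TGANTCA, for the STAT5 motif TTCNNNGAA and for the κB motif, and no member window held matches of more than 1 of them. Of the 9 members with a window in the RefSeq promoter table, some with more than 1 window, TGANTCA was found in 3, the Bcl2a1 genes. These copies are near-identical, so the 3 matches are not separate. Of all 32851 promoter windows, 7.81% held TGANTCA. The shares of all windows count single windows, so they are not like for like with counts of genes. The κB motif, held by 4.51% of all windows, was found in a window of Bcl2l1 and of Bbc3, and the STAT5 motif, held by 8.30%, in none of the 9. A match describes these letters and does not show binding.

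In γδ T-like cells as a whole, the TIL library held far more Bcl2a1 and Bcl2l1 and far less Bcl2 than the IEL library, while Mcl1, Bax and the BH3-only genes lay within 2-fold. The Bcl2a1 sum was 293 CPM (289 to 297) in IEL and 2683 CPM (2672 to 2694) in TIL cells, 9.15-fold higher in TIL. Bcl2, the founding survival gene of the family (chr1:106538178-106714274), was 410.0 CPM (405 to 415) in IEL and 66.7 CPM (64.9 to 68.4) in TIL cells, 6.15-fold lower in TIL. Bcl2l1, which encodes BCL-XL (chr2:152780668-152831728), was found at 17.2 CPM in IEL cells and at 56.0 CPM in TIL cells, 3.26-fold higher in TIL. The direction of the survival genes was thus mixed: A1 and BCL-XL transcripts were higher in TIL and BCL2 transcripts lower. A gene was called apart when it reached 20 CPM in either group, differed at least 2-fold and had an interval that excluded equality. Of the 9 members that reached 20 CPM, 4 were apart higher in TIL (Bcl2l1, Bcl2a1a, Bcl2a1b and Bcl2a1d) and 1 lower (Bcl2). Among all 6325 genes measured, 24.8% were apart, 11.1% higher and 13.8% lower. The 3 Bcl2a1 rows share reads, so they are not separate counts.

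**Figure D1:**
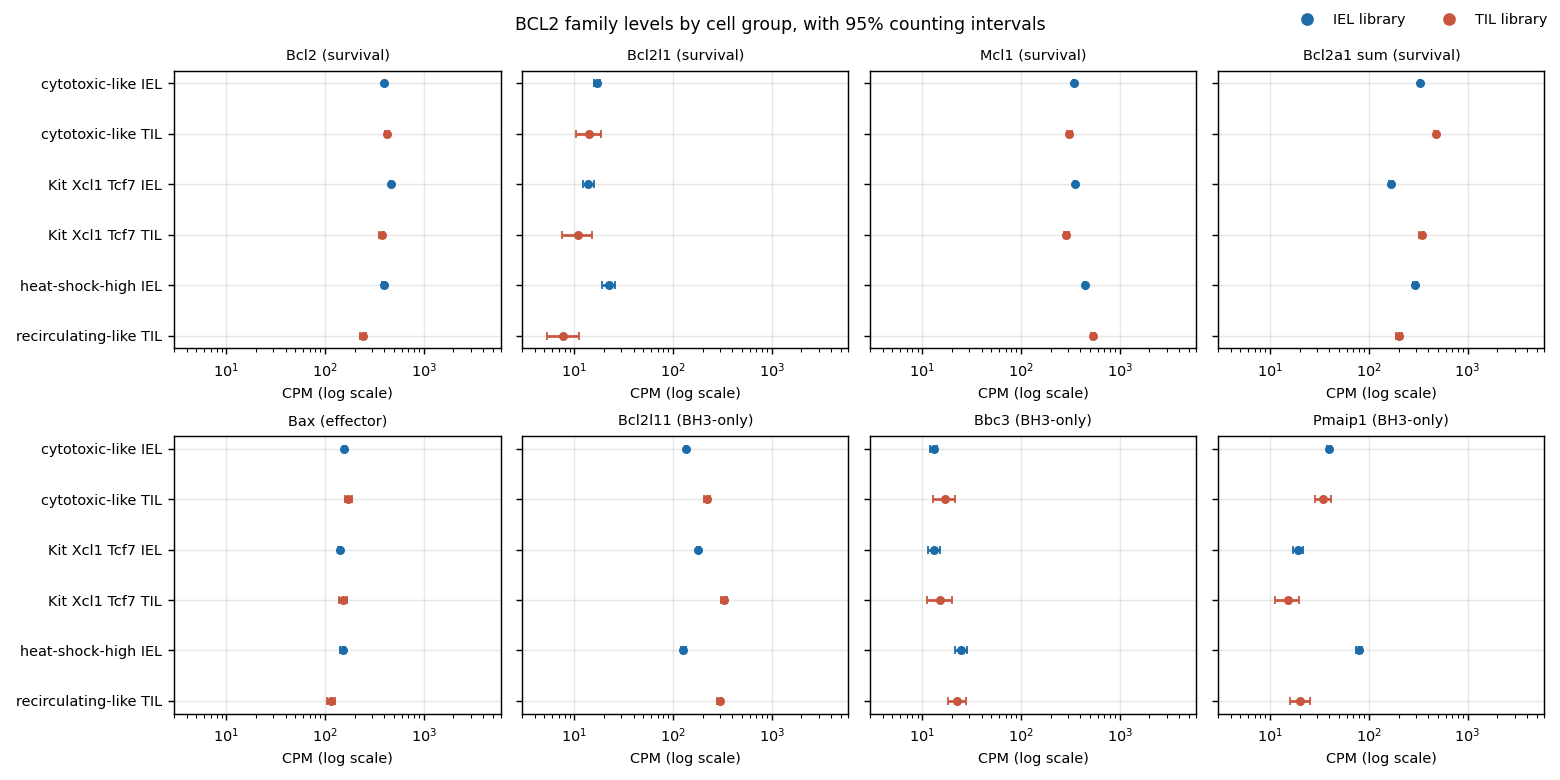
Levels of the family (x axis, CPM on a log scale) in 6 cell groups (y axis), with IEL groups in blue, TIL groups in red and bars for 95% counting intervals. The cytotoxic-like groups of the 2 libraries lie close together for Bcl2, at 398 and 425 CPM, and recirculating-like cells have the highest Mcl1 of the 6, at 534 CPM.

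Among the copies, Bcl2a1b was the most frequent row in both libraries, with 182 CPM among IEL cells and 1373 CPM among TIL cells. Bcl2a1d was at 108 CPM in IEL cells and at 868 CPM in TIL cells, 8.04-fold higher in TIL. Bcl2a1a was at 3.51 CPM in IEL cells and at 442 CPM in TIL cells, 126-fold higher in TIL. As a share of Bcl2a1 UMIs, the Bcl2a1a row was 16.3% in TIL myeloid-like cells, 0.712% in cytotoxic-like IEL cells and 0.358% in IEL cells marked by Kit, Xcl1 and Tcf7. The myeloid-like share lay near the 16.5% of all TIL γδ T-like cells. Free RNA, estimated below, could give up to 37.4% of the Bcl2a1a row in myeloid-like cells. Bcl2a1a is also the row with the largest part of its 3' end to itself, and how far the counting of shared reads set these shares was not tested.

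Mcl1, which encodes a short-lived survival protein (chr3:95658788-95663176), was at 359 CPM in IEL and at 299 CPM in TIL γδ T-like cells (log2 ratio -0.26). Bax, the pore-forming effector (chr7:45461697-45466898), was at 155 CPM in IEL cells and at 212 CPM in TIL cells (log2 ratio 0.46). Neither difference reached 2-fold. Bcl2l11, which encodes the BH3-only protein BIM (chr2:128126038-128162547), was at 146 CPM in IEL cells and at 110 CPM in TIL cells. Pmaip1, which encodes NOXA, a BH3-only protein that binds MCL1 and A1, was at 40.5 CPM in IEL cells and at 66.1 CPM in TIL cells (log2 ratio 0.71). Bbc3, which encodes PUMA, a BH3-only target of p53 (chr7:16308393-16318205), was at 14.9 CPM in IEL cells and at 18.6 CPM in TIL cells, under the 20 CPM needed to count as measured. Restricting both libraries to cells with a γδ constant transcript and no Trac gave log2 ratios of -2.71 for Bcl2, 3.22 for Bcl2a1b and 1.20 for Pmaip1, so that 6 members were then apart, with Pmaip1 added. Same-strand gene models of GENCODE M21 overlap 3 members: the protein-coding Gm29094 at Bcl2a1b and Gm45808 at Bax, and Gm37053 and Mir3473f at Bcl2. Whether the counting used these models was not checked. If it did, reads in the shared stretches cannot be assigned to either gene. The sources used here do not say whether counting used strand, and without it reads of Bcl2 and Bcl2a1d cannot be told apart from those of the overlapping antisense genes D630008O14Rik and Gm10634.

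Expressed as the make-up of survival transcripts, the UMIs of Bcl2, Bcl2l1, Mcl1 and the Bcl2a1 genes summed, the lineages differed in their leading gene. In IEL cytotoxic-like cells Bcl2 gave 36.6%, Mcl1 31.7% and Bcl2a1 30.1%. In TIL cytotoxic-like cells Bcl2a1 gave 39.2%, Bcl2 34.6% and Mcl1 25.1%. The cytotoxic-like groups thus drew on 3 genes in similar parts, with the first place held by Bcl2 in IEL. In TIL the first place of Bcl2a1 over Bcl2 was lost when an upper estimate of free RNA was taken off, which left 423 CPM of the Bcl2a1 sum and 424 CPM of Bcl2. Cells marked by Kit, Xcl1 and Tcf7 led with Bcl2 in both libraries, at 46.6% in IEL and 36.7% in TIL. Recirculating-like TIL cells led with Mcl1 at 54.1%. Bcl2l1 gave between 0.790% and 1.93% in the 6 groups plotted. The summed survival transcripts were 1087 CPM in IEL and 1231 CPM in TIL cytotoxic-like cells, and 988 CPM in recirculating-like TIL cells. Over all γδ T-like cells, Bcl2a1 was 27.2% of survival UMIs in IEL (26.8 to 27.5) and 86.4% in TIL. It was 21.4% in IEL cells with a γδ constant transcript and no Trac.

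**Figure D2:**
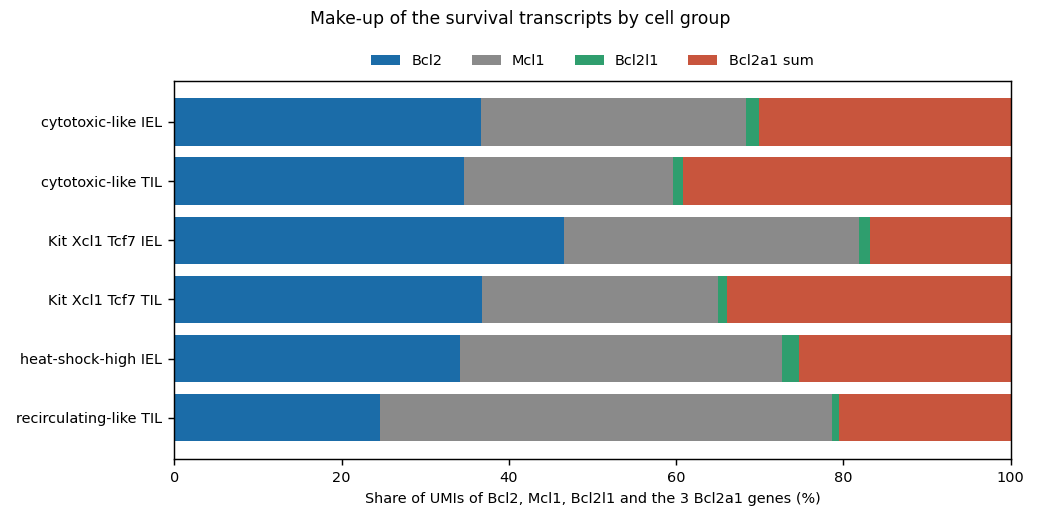
Share of survival UMIs (x axis, %) given by Bcl2, Mcl1, Bcl2l1 and the Bcl2a1 sum in 6 cell groups (y axis). Mcl1 fills 54.1% of the recirculating-like bar, and no gene exceeds 46.6% in the other groups.

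Compared within 1 lineage, the libraries differed far less. In cytotoxic-like cells Bcl2 was 398 CPM in IEL and 425 CPM in TIL, a log2 ratio of 0.10 (0.02 to 0.17). The Bcl2a1 sum was 327 CPM in IEL and 482 CPM in TIL, 1.47-fold higher in TIL. Bcl2l11 was 136 CPM in IEL and 220 CPM in TIL, 1.61-fold higher in TIL. None of the 7 measured members was apart, where 6.94% of 6064 genes were, 2.44% higher and 4.50% lower. Mcl1 was 345 CPM in IEL and 309 CPM in TIL, Bax 158 and 173 CPM, and Pmaip1 39.9 and 34.5 CPM. Bcl2l1 (16.997 and 14.2 CPM), Bbc3 (13.1 and 16.96 CPM) and the Bcl2a1a row (2.33 and 17.8 CPM) stayed under 20 CPM in both libraries. The ratio of Bcl2a1b was 0.57 on the log2 scale, and 1.11 when genes were centred within each library before clustering, which put 2 members apart.

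In cells marked by Kit, Xcl1 and Tcf7, Bcl2 was 467 CPM in IEL and 375 CPM in TIL, a log2 ratio of -0.32 (-0.40 to -0.23). The Bcl2a1 sum was 168 CPM in IEL and 345 CPM in TIL, 2.05-fold higher in TIL. Bcl2l11 was 181 CPM in IEL and 330 CPM in TIL, 1.82-fold higher in TIL. BIM transcripts were not apart in either lineage or over all γδ T-like cells, where the log2 ratio was -0.40. Of the 6 measured members only Bcl2a1b was apart, with 111 CPM in the IEL and 224 CPM in the TIL library (log2 ratio 1.02), against 7.34% of 5965 genes, 2.15% higher and 5.20% lower. Mcl1 was 354 and 289 CPM, Bax 141 and 154 CPM, and Pmaip1 19.3 and 15.1 CPM. The median gene of this comparison had a log2 ratio of -0.11, and relative to it the log2 ratio was 1.13 for Bcl2a1b and 1.02 for Bcl2a1d.

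**Figure D3:**
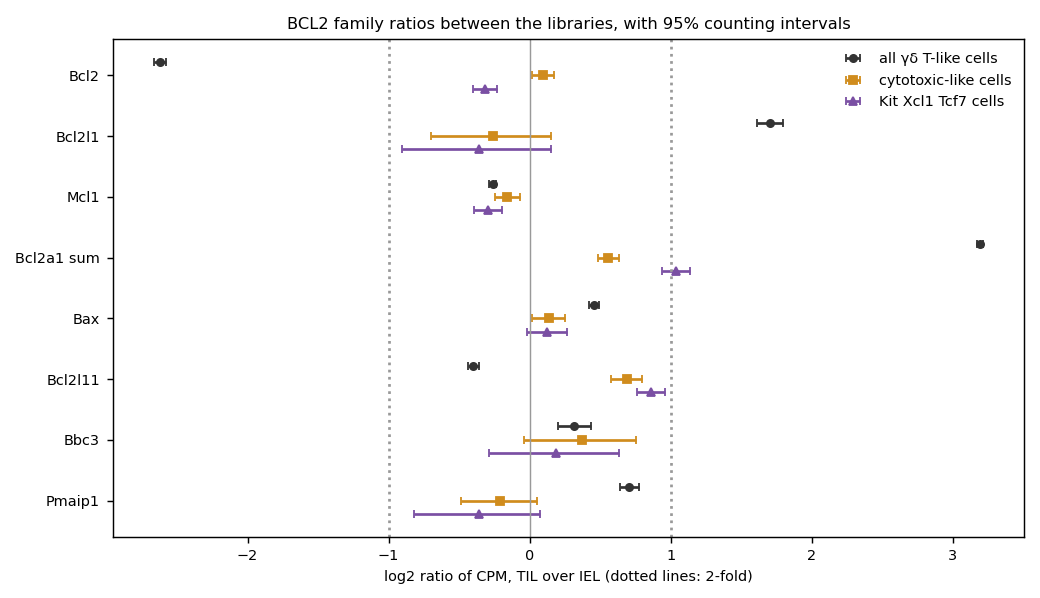
Log2 ratio of CPM, TIL over IEL (x axis, dotted lines at 2-fold), for the family (y axis) in all γδ T-like cells, cytotoxic-like cells and cells marked by Kit, Xcl1 and Tcf7, with 95% counting intervals. Bcl2 lies at -2.62 over all γδ T-like cells but at 0.10 and -0.32 within the 2 lineages, and the Bcl2a1 sum moves from 3.19 to 0.56 and 1.04.

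Droplets also hold free RNA of the library, which bears on the Bcl2a1 values of the smaller groups. The upper estimate assumed that every Il17a transcript of a group was free, and scaled the TIL library's own composition to it. It gave 12.1% of the Bcl2a1 sum in cytotoxic-like, 17.5% in Kit, Xcl1 and Tcf7 marked and 29.2% in recirculating-like TIL cells. For the Bcl2a1a row it gave 53.8%, 71.4% and 101%, so no reading of that row is made in those groups. That part was taken off the TIL level only and nothing off the IEL level, so ratios between the libraries could only fall. The log2 ratio of the Bcl2a1 sum was then 0.37 in cytotoxic-like cells and 0.76 in those marked by Kit, Xcl1 and Tcf7. Bcl2a1b in the latter was no longer apart, at 0.80. The ratios of Bcl2l11 barely moved, to 0.67 and 0.85, and the free part of Bcl2 was 0.368% and 0.432% of its level in these 2 groups.

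IEL cells differed in Bcl2a1 by their receptor transcripts within a lineage. Among IEL cytotoxic-like cells, the 842 with a γδ constant transcript and no Trac held 255 CPM of the Bcl2a1 sum (241 to 269), against 338 CPM (332 to 344) in the 4770 with both. Among IEL cells marked by Kit, Xcl1 and Tcf7 the values were 121 CPM (112 to 130) in 917 cells and 195 CPM (187 to 204) in 1256 cells. Bcl2 differed less, at 373 and 402 CPM in cytotoxic-like cells and 461 and 472 CPM in the other lineage. The cells without Trac were shallower, with median UMIs of 6092 against 6960.5 and 6244 against 7472.5, and the part of depth in these differences was not tested.

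Cell by cell, after thinning to 2000 UMIs, a Bcl2a1 transcript was found in 43.1% of IEL and 53.2% of TIL cytotoxic-like cells, or 79.1% and 79.6% unthinned. Bcl2 was found in 49.0% of IEL and 51.5% of TIL cytotoxic-like cells (82.4% and 77.1% unthinned). As background, Bcl2 was found in 2.38% of 210 TIL myeloid-like cells (median 6752 UMIs) and in 1 of 20 TIL epithelial-like cells, or 5% (median 4301 UMIs, 0.127 to 24.9). In IEL it was found in 4 of 17 epithelial-like cells, or 23.5% (median 6568 UMIs, 6.81 to 49.9), an interval that holds the IEL cytotoxic-like share of 49.0%. The cytotoxic-like cells had medians of 6800 UMIs in IEL and 5431 UMIs in TIL. For Bcl2a1 the epithelial-like shares were 45.0% of 20 cells in TIL (23.1 to 68.5) and 23.5% of 17 cells in IEL (6.81 to 49.9). Those intervals hold the cytotoxic-like shares and that of recirculating-like TIL cells (24.5%). They also hold the shares of cells marked by Kit, Xcl1 and Tcf7 (22.3% in IEL and 39.5% in TIL). Intervals from so few droplets are too wide to show whether these Bcl2a1 shares, or the Bcl2 share in IEL, exceed background. No reading of these shares against background is made. The epithelial-like droplets themselves held T cell RNA, with Gzma at 30.2% of its IEL library level. Mcl1 was found in between 42.3% and 63.0% of the cells of the 6 groups plotted.

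Clusters of 1 lineage also differed within the IEL library. In IEL cytotoxic-like clusters Bcl2 ran from 306 CPM in cluster 4 to 482 CPM in cluster 2, with 388 CPM in cluster 5. The Bcl2a1 sum followed the same order, with 271 CPM in cluster 4, 343 CPM in cluster 5 and 363 CPM in cluster 2. The IEL clusters marked by Kit, Xcl1 and Tcf7 differed, with 155 CPM of the Bcl2a1 sum and 15.6 CPM of Pmaip1 in cluster 3 but 324 and 60.2 CPM in cluster 1, which held 187 cells.

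Recirculating-like TIL cells, a cluster with Ccr7 and S1pr1 among its leading genes, were set beside TIL cytotoxic-like cells after the data were seen. The median gene had a log2 ratio of -0.36, so ratios are given relative to it. Mcl1 was 534 CPM against 309 CPM (relative log2 ratio 1.15) and Bcl2l11 298 CPM against 220 CPM (0.80). The Bcl2a1 sum was 203 CPM against 482 CPM (-0.89) and Bcl2 243 CPM against 425 CPM (-0.45). Before that shift 2 of 8 measured members were apart, Bcl2a1b and Bcl2a1d, both lower (relative log2 ratios -0.66 and -1.49), against 23.0% of 5760 genes, 5.35% higher and 17.7% lower. The share of all genes apart was thus near that of the members.

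Heat-shock-high IEL cells were also compared with IEL cytotoxic-like cells after the data were seen. They carried 34474 CPM of the dissociation stress genes against 13784 CPM. That list holds Hspa1a, Hspa1b, Dnajb1 and Hspb1, which were among the markers that named the group. The higher sum was thus in part fixed by the naming. Pmaip1 was 79.4 CPM against 39.9 CPM (log2 ratio 0.99) and Bbc3 25.0 CPM against 13.1 CPM (0.93), both just under 2-fold. The median gene had a log2 ratio of -0.05, and relative to it the ratios were 1.04 for Pmaip1 and 0.98 for Bbc3. Mcl1 was 446 CPM against 345 CPM, while Bcl2 was 395 CPM against 398 CPM. Unadjusted for the median gene, none of 9 measured members was apart, where 0.876% of 5939 genes were, 0.842% higher and 0.0337% lower. The third BH3-only member, Bcl2l11, was 128 CPM against 136 CPM (-0.10). The part of tissue handling in these values was not tested.

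Other groups were small. Cycling-like TIL cells had 24.3 CPM of Bcl2 and 1889 CPM of the Bcl2a1 sum, and the IEL ones 217 and 350 CPM. Myeloid-like TIL cells had 2346 CPM of the Bcl2a1 sum, 1088 CPM of Mcl1 and 16.5 CPM of Bcl2. The upper estimate of free RNA gave 37.1%, 9.78% and 141% of these values, so no reading of Bcl2 is made there. Trdc was found in 43.3% of the myeloid-like cells after thinning.

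The other genes of the pathway were read from fixed lists. Of all genes measured, 24.8% were apart between the libraries in γδ T-like cells and 6.94% in cytotoxic-like cells. Of 6 other BCL2 family genes measured in γδ T-like cells, Bnip3, which acts in removal of mitochondria, was higher in TIL (31.8 against 10.5 CPM) and none was lower. The effector Bak1 was 27.6 CPM in IEL and 28.4 CPM in TIL cytotoxic-like cells. Bcl2l15, a distant family member, was 20.8 CPM in IEL and 59.2 CPM in TIL cytotoxic-like cells (log2 ratio 1.51), where it was the 1 of 5 measured that was apart. Of 10 caspase pathway genes, Cflar, which blocks caspase-8, was higher in TIL γδ T-like cells (log2 ratio 1.05) and Htra2 lower (-1.24). Neither list held a larger share apart in γδ T-like cells than the 24.8% of all genes. In cytotoxic-like cells Apaf1, the apoptosome scaffold, was the 1 of 10 measured caspase pathway genes that was apart, higher in TIL (1.25).

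The lists of signals that act on the family moved with the libraries to different extents. The cytokines IL-7 and IL-15 sustain Bcl2 and Mcl1 in lymphocytes. Of 14 measured genes in the list for their signalling, 8 were higher in TIL γδ T-like cells and 0 lower. Over all genes 11.1% were higher and 13.8% lower. The median log2 ratio of the list was 1.21 against -0.10 over all genes. The largest ratios of the list were those of Il2ra (4.99), Il7r (4.29), Cish (3.35) and Socs2 (2.59). Il2ra encodes a chain of the IL-2 receptor and is part of neither the IL-7 nor the IL-15 receptor. In cytotoxic-like cells 3 of 13 were higher, against 2.44% of all genes: Il7r (1.52), Il2ra (1.31) and Il2rb (1.08). These 3 receptor genes were thus apart in both readings, while the shared chain gene Il2rg was apart in neither (0.81 and 0.62). Il15ra was higher in γδ T-like cells (1.28) and under 20 CPM in cytotoxic-like cells of both libraries. Of 12 NF-κB genes, a pathway known to induce Bcl2a1 and Bcl2l1, 7 were higher in TIL γδ T-like cells, with a median of 1.43, led by Bcl3 (2.62), Nfkb1 (2.35) and Nfkbia (1.96). In cytotoxic-like cells 1 of 11, Nfkb2 (1.21), was higher in TIL, and in cells marked by Kit, Xcl1 and Tcf7 0 of 11. Over all genes 11.1% were higher in γδ T-like cells, 2.44% in cytotoxic-like cells and 2.15% in cells marked by Kit, Xcl1 and Tcf7.

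Of 8 measured genes among p53 and its targets, 3 were higher in TIL γδ T-like cells, against 11.1% of all genes. These were Cdkn1a (log2 ratio 2.34), Sesn1 (1.37) and Mdm2 (1.04). The target Bax was not apart there (0.46), and the target Bbc3 was under 20 CPM. The BH3-only member Pmaip1 was not apart (0.71), but was so among cells with a γδ constant transcript and no Trac (1.20). Of 6 measured FOXO and stress regulators of BH3-only genes, 5 were lower in TIL γδ T-like cells, against 13.8% of all genes. Among the 5 were Ddit3 (-3.72), Jun (-1.76), Foxo1 (-1.54) and Atf4 (-1.54). In cytotoxic-like cells 4 of 6 were lower, against 4.50% of all genes: Ddit3 (-2.68), Jun (-2.09), Nr4a1 (-1.38) and Atf4 (-1.06). Jun is in both this list and the dissociation stress list and is counted in each. The dissociation stress list moved the same way, with 10 of 17 genes lower in TIL γδ T-like cells, against 13.8% of all genes. Its summed level was 17431 CPM in IEL and 7623 CPM in TIL. In cytotoxic-like cells that level was 13784 CPM in IEL and 6987 CPM in TIL. The part of tissue handling in the Ddit3, Jun and Atf4 ratios was not tested.

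Across the 18 groups of library and cluster, which share libraries and differ in depth, Pearson's r of log2(CPM + 10) was -0.92 between Bcl2 and the Bcl2a1 sum. It was 0.90 between the Bcl2a1 sum and Bcl2l1 and 0.90 between the sum and Bax, and 0.03 between Bcl2 and Mcl1. Of 7538 candidate genes the 3 most like Bcl2 were Tapbpl (0.98), Gimap4 (0.98) and Vps13a (0.98). Those most like the Bcl2a1 sum were Tspo (0.98), Sec61g (0.97) and Surf4 (0.97). Those most like Mcl1 were Il10ra (0.93), P2rx4 (0.93) and Ndel1 (0.90), and those most like Bcl2l11 were Crim1 (0.90), Cic (0.88) and Tbc1d15 (0.87). These values describe the 18 groups and are no test. The groups mix both libraries and their lineages, with a myeloid-like and an unnamed cluster among them. Within the IEL cytotoxic-like clusters Bcl2 and the Bcl2a1 sum followed the same order, as given above.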

How the data were processed

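The authors deposited raw UMI counts, whole numbers for each gene in each barcode, per the file headers. Cell Ranger 6.1.1 and the mm10 build are given in the submitters' processing notes. Cells with at least 500 genes, 1000 UMIs, at most 10% mitochondrial and under 5% haemoglobin UMIs (24 TIL droplets removed, 0 IEL) were kept: 97.1% of IEL and 93.5% of TIL barcodes. They were clustered together with Scanpy 1.11.5 (counts per 10000, 2000 variable genes, 30 components, 15 neighbours, Leiden resolution 1), without the family and its pathway lists among the variable genes. The dissociation stress genes were allowed among them. No doublet caller was run; cluster 18, with high UMI totals, and cluster 21, with Foxp3 and Cd4, were left unnamed.

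Classes needed 3 fixed markers at 50 CPM, and those of other cell types also 4-fold over the remaining cells. Counts were summed per class and library. Ratios have exact conditional and shares exact Clopper-Pearson 95% intervals; 5 comparisons are reported, and the results of 1 other are not reported here. All members are named; of other lists, up to 4 genes apart per direction; for likeness, the 3 highest correlations. Values named within clusters were picked after they were seen.

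Members and lists were chosen with earlier results of these data known. The comparisons of Kit, Xcl1 and Tcf7 marked, recirculating-like and heat-shock-high cells, the haemoglobin limit, the naming rule and the free RNA estimates for other classes were chosen after seeing the data. Alternatives changed the cell filter, clustering, γδ rule, weighting, scaling, floor, fold and thinning. Positions are from GENCODE M21.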

Additional observations from a re-analysis of the deposited data

Results flagged for a closer look

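Bcl2 differed between the libraries in opposite directions in the lineages found in both: the log2 ratio of TIL over IEL was 0.10 in cytotoxic-like cells and -0.32 in cells marked by Kit, Xcl1 and Tcf7. Neither ratio reached 2-fold, and the difference between them was not tested. Over the alternatives the first ran from -0.26 to 0.32, being negative when genes were centred within each library before clustering, and the second from -0.37 to -0.17.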

How the results depend on the processing

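No paired analysis was possible because each group has 1 library, and leaving out a replicate was likewise not possible. The count of members apart was 5 over γδ T-like cells (6 under the γδ rule by receptor transcripts and at a fold of 1.5). In cytotoxic-like cells, TIL over IEL, it was 0, but 2 with genes centred within each library and 1 with a floor of 5 CPM, no floor or a fold of 1.5. In cells marked by Kit, Xcl1 and Tcf7 it was 1, but 0 at resolution 2 or with centring; 2 with the looser cell filter, resolution 0.5, the receptor rule, the median ratio set to 1, a floor of 5 CPM or no floor; and 3 at a fold of 1.5. The Bcl2a1 share of survival UMIs was 86.4% in TIL (86.8% at resolution 2, 85.9% by the receptor rule, 85.1% as a mean over cells) and 27.2% in IEL (27.5% with centring, 21.4% by the receptor rule, 26.5% as a mean over cells). Of 360 single ratios under alternatives 108 moved beyond their interval and 252 did not. They include the comparison not reported here, and none from the comparisons of recirculating-like and heat-shock-high cells. The ratios of Bcl2, Bcl2l1 and the Bcl2a1 rows over γδ T-like cells kept their direction in each alternative run. The comparison of cytotoxic-like cells was not run at resolution 0.5, which left 33 such cells. The cause of these shifts was not tested. Depth limits Bbc3, Bcl2l1 and Bcl2a1a, which stayed under 20 CPM in several groups.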
